A study of Homo sapiens with 11 samples.

Results

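The replication-dependent histone genes code for the histone proteins that package newly made DNA. They were described here in hTert-HME1 cells, human mammary epithelium made immortal with telomerase, after removal of epidermal growth factor (EGF) and after transfection with an siRNA labelled BRCA2. Members were taken by name: the linker histone genes H1-1 to H1-5 and the genes named H2AC, H2BC, H3C or H4C with a number. RefSeq lists 68 such protein-coding genes, of which 33 had an identifier in the deposited table of 40460 genes. The other 35 were not analysed here. A gene also needed at least 10 on the linear scale of these values in at least 2 libraries, which left 30 genes, all at or above that level in all 11 libraries. H2AC1, H2AC7 and H2BC1 were below it. The 30 were 5 H1, 7 H2A, 9 H2B, 5 H3 and 4 H4 genes. H2AC18 was matched through its older name HIST2H2AA3.

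Total RNA was depleted of ribosomal RNA and sequenced from 11 libraries. The groups were BRCA2 siRNA without EGF (replicates A, B and C), control siRNA without EGF (A and C), BRCA2 siRNA with EGF (A, B and C) and control siRNA with EGF (A, B and C). Every group was the same line at passage 6, kept in mammary epithelial growth medium and transfected with RNAiMAX. One siRNA was used per target (BRCA2-1 and control-2), so an effect of that siRNA on other transcripts and an effect through BRCA2 cannot be told apart. The labels call A, B and C biological replicates and do not say whether they were separate cultures. The p-values therefore measure only the spread between these libraries, as left after the centring of A described below. Values are normalised and on a log2 scale, with no read counts, so the depth behind each value is unknown.

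The BRCA2 transcript (ENSG00000139618) went against the label. BRCA2 without EGF was at 12.48, 12.27 and 12.11 in the libraries labelled BRCA2 siRNA, against 11.44 and 11.65 with control siRNA. BRCA2 with EGF was at 12.43, 12.37 and 12.40 in those labelled BRCA2 siRNA, against 12.45, 12.13 and 12.48 with control siRNA. The groups overlapped with EGF and did not overlap without it, where BRCA2 was 0.74 ± 0.13 higher under its own siRNA (log2 difference ± standard error, adjusted p = 0.00397, limma with Benjamini-Hochberg adjustment). Every result below is therefore one for libraries labelled BRCA2 siRNA. Most basal epithelial markers were high in every library, with KRT5 at 17.21 to 18.78 and TP63 at 13.01 to 14.04. CDH1, of the same list, was lower, at 6.94 to 11.09. Its means without EGF were 9.12 in libraries labelled BRCA2 siRNA and 11.07 with control siRNA, against 7.29 and 7.31 with EGF. EPCAM and KRT19, which many breast epithelial cells express, did not reach the level for testing. Of the leukocyte genes, CD3E and CD68 were at or below -1.01, PTPRC was at 2.33 to 3.10 and CD14 at 3.00 to 5.61.

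Cells make most replication-dependent histone mRNA while they copy their DNA. The transcripts come from gene clusters transcribed at histone locus bodies with the coactivator NPAT. In place of a poly(A) tail they end in a conserved stem-loop, which stem-loop binding protein (SLBP) holds through processing, translation and decay. H2A, H2B, H3 and H4 form the nucleosome core, and H1 binds the linker DNA between cores. Replacement histones come mostly from genes with polyadenylated transcripts and are made outside S phase as well.

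A stem-loop of 16 bases was found in the GENCODE transcripts of 17 of the 30 genes by a search for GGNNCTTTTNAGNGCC on the transcript strand. A stem-loop beyond the end of an annotated transcript would be missed, so the other 13 genes are not shown to lack one. The stem-loop took 4 forms, and the examples below show all of them, with the 16 bases in capitals and 5 flanking bases on each side. The sequences run 5′ to 3′ and are written as DNA.
H2BC13: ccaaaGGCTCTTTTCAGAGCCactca
H2BC4: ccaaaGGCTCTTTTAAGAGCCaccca
H2AC11: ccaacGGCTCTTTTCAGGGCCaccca
H4C11: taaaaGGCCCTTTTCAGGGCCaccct
H4C16: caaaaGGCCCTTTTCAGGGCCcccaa
The form in H2BC13 was shared by 11 H2A, H2B and H3 genes, that in H2BC4 by 2 H2B genes (H2BC4 and H2BC5), and that in H4C11 and H4C16 by 3 H4 genes. In H2AC11 the stem had 5 Watson-Crick pairs and 1 G-T pair, while the other forms had 6 Watson-Crick pairs. H4C11 and H4C16 are shown together because they carry the same 16 bases and lie at opposite ends of the response to EGF withdrawal.

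The promoters of the H1, H2B and H4 genes below show the elements that differ between histone classes. Each is the 250 bases before the start site in RefSeq on GRCh38.p14, printed 5′ to 3′ on the gene's strand with the searched motifs in capitals. H1-2 lies at chr6:26056471-26056720 on the minus strand, H2BC12 at chr6:27146859-27147108 on the minus strand and H4C11 at chr6:27823842-27824091 on the plus strand.
H1-2: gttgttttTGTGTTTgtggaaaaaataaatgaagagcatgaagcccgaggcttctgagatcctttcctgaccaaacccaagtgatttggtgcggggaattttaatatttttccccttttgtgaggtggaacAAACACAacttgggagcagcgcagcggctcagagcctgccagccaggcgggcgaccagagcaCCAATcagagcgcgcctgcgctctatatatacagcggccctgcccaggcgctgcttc
H2BC12: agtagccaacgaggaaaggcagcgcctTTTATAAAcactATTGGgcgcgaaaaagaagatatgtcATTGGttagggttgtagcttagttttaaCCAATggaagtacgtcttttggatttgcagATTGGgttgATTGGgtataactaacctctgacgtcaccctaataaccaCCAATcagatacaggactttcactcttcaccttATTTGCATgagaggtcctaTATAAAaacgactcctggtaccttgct
H4C11: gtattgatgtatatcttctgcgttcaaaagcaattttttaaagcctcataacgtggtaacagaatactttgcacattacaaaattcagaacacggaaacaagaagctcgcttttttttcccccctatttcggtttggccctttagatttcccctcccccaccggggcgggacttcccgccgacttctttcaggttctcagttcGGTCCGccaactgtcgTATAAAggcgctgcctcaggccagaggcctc
H2BC12 is shown because its difference between the siRNAs without EGF had the smallest adjusted p of the 30 genes. Where a gene had several promoters in RefSeq, the one with the most kinds of searched motif in its 250 bases is printed. Motifs were searched as exact letters on both strands, over 250 bases before to 50 after the start, in the 28 members with a RefSeq promoter (H3C12 and H4C3 had none). A member counted if any of its promoters held the motif. The shares of all promoters count each promoter singly, so a member with several promoters had more chances of a match. CCAAT was found in all 5 H1, all 7 H2A, all 9 H2B and all 4 H3 promoters, in 0 of 3 H4 promoters, and in 34.6% of all 35116 promoters. AAACACA, the H1 box, was found in all 5 H1 promoters, in H2AC20, H3C14 and H3C15, and in 5.64% of all promoters. GGTCCG, the core of an H4 element, was found in all 3 H4 promoters, in H2AC20 and H2BC21, and in 11.3% of all promoters. ATTTGCAT, the octamer, was found in 4 of 7 H2A, 5 of 9 H2B and 1 of 4 H3 promoters, and in 1.77% of all promoters. TATAAA was found in 3 of 5 H1, 6 of 7 H2A, 6 of 9 H2B, 4 of 4 H3 and 2 of 3 H4 promoters, and in 11.5% of all promoters. Motifs may overlap, as TATAAA does with its reverse complement in H2BC12, and a match describes the sequence only.

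Removal of EGF lowered histone genes of every class. In libraries labelled BRCA2 siRNA, 12 of 30 genes fell and 0 rose, beside 13.8% of all 17945 genes tested that fell. With control siRNA, 22 of 30 genes fell and 0 rose, beside 26.1% of all genes that fell. All 30 differences were negative under both siRNAs, with a median of -0.40 in libraries labelled BRCA2 siRNA and -0.92 with control siRNA, while the median of all genes was 0.0032 in libraries labelled BRCA2 siRNA and -0.0036 with control siRNA. A gene was called at an adjusted p under 0.05 in a limma fit of all 11 libraries as 4 groups, two-sided, with Benjamini-Hochberg adjustment over all genes tested. The libraries without EGF all lay below those with EGF in 13 of 30 genes in those labelled BRCA2 siRNA, beside 24.4% of all genes, and in 24 of 30 with control siRNA, beside 33.6% of all genes.

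In libraries labelled BRCA2 siRNA, 2 of 5 H1, 3 of 7 H2A, 4 of 9 H2B, 0 of 5 H3 and 3 of 4 H4 genes fell. With control siRNA, 3 of 5 H1, 6 of 7 H2A, 6 of 9 H2B, 4 of 5 H3 and 3 of 4 H4 genes fell. These counts stand beside the shares of all genes given above. The class medians with control siRNA ran from -0.67 for H2B to -1.13 for H4. These are bulk libraries, in which fewer cells in S phase and less histone mRNA per cell cannot be told apart.

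**Figure D1:**
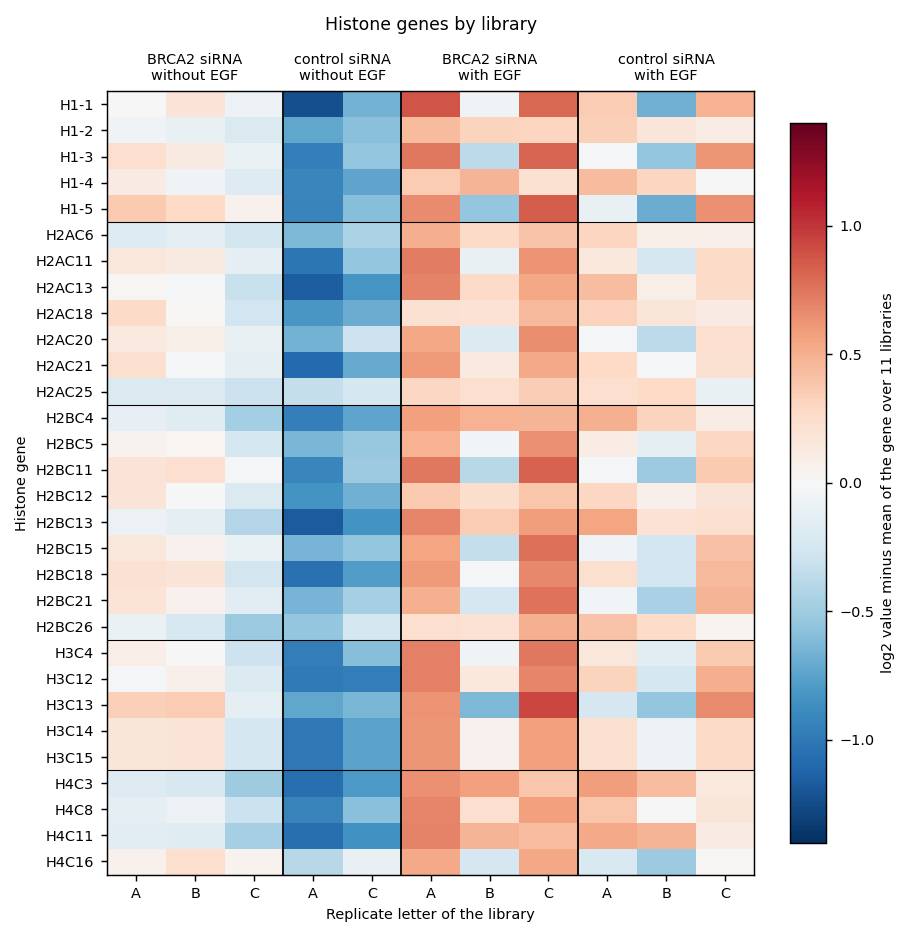
Deposited log2 value of each of the 30 histone genes in each of 11 libraries, minus the gene's mean over all libraries (red higher, blue lower). The 2 control siRNA libraries without EGF are the bluest columns in most genes, and the B libraries with EGF are below A and C in H1-5 and H3C13.

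Among the linker histones, H1-2 varied least and fell under both siRNAs. H1-2 without EGF was at 14.77, 14.71 and 14.61 in libraries labelled BRCA2 siRNA and at 14.09 and 14.23 with control siRNA. H1-2 with EGF was at 15.26, 15.13 and 15.11 in those labelled BRCA2 siRNA and at 15.15, 14.98 and 14.92 with control siRNA. The 2 control libraries without EGF were the lowest of all 11, and the groups with and without EGF did not overlap. H1-2 fell by 0.47 ± 0.09 in libraries labelled BRCA2 siRNA (adjusted p = 0.00376, limma) and by 0.86 ± 0.10 with control siRNA (adjusted p = 4.88e-05). H1-5 is another linker histone gene of the same cluster. H1-5 without EGF was at 13.94, 13.85 and 13.63 in libraries labelled BRCA2 siRNA and at 12.65 and 12.97 with control siRNA. H1-5 with EGF was at 14.23, 13.03 and 14.42 in those labelled BRCA2 siRNA and at 13.47, 12.88 and 14.21 with control siRNA. The B libraries with EGF lay more than a log2 unit below C, and the groups overlapped. The H1-5 differences were -0.08 ± 0.36 in libraries labelled BRCA2 siRNA (adjusted p = 0.877) and -0.71 ± 0.40 with control siRNA (adjusted p = 0.162). H1-4 fell by 0.39 ± 0.13 in libraries labelled BRCA2 siRNA and by 1.08 ± 0.14 with control siRNA. H1-1 fell with control siRNA by 1.01 ± 0.35 (adjusted p = 0.0313), and its groups overlapped. H1-3 differed there by -0.76 ± 0.36 (adjusted p = 0.0989).

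H2AC13, an H2A gene of the large cluster on chromosome 6, fell the most of the H2A genes. H2AC13 without EGF was at 12.68, 12.64 and 12.35 in libraries labelled BRCA2 siRNA and at 11.51 and 11.84 with control siRNA. H2AC13 with EGF was at 13.36, 12.93 and 13.20 in those labelled BRCA2 siRNA and at 13.10, 12.75 and 12.93 with control siRNA. No library without EGF reached one with EGF under either siRNA. The fall was 0.61 ± 0.14 in libraries labelled BRCA2 siRNA (adjusted p = 0.0105) and 1.26 ± 0.16 with control siRNA (adjusted p = 9.54e-05, limma). H2AC20, on chromosome 1, was the only H2A gene that did not pass with control siRNA. H2AC20 without EGF was at 12.87, 12.81 and 12.63 in libraries labelled BRCA2 siRNA and at 12.07 and 12.44 with control siRNA. H2AC20 with EGF was at 13.27, 12.54 and 13.38 in those labelled BRCA2 siRNA and at 12.71, 12.37 and 12.97 with control siRNA. The B libraries with EGF were lower than A and C and overlapped the libraries without EGF. Its differences were -0.30 ± 0.21 (adjusted p = 0.309) in libraries labelled BRCA2 siRNA and -0.43 ± 0.24 (adjusted p = 0.148) with control siRNA. H2AC6 fell by 0.58 ± 0.09 in libraries labelled BRCA2 siRNA and by 0.69 ± 0.10 with control siRNA. H2AC11, H2AC18 and H2AC21 had differences of -0.35, -0.28 and -0.40 in libraries labelled BRCA2 siRNA, which did not pass, and fell by 0.84, 0.96 and 1.05 with control siRNA.

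The H2B genes that fell most were H2BC13 and H2BC4. H2BC4 had the smallest p of its class with control siRNA. H2BC4 without EGF was at 13.25, 13.19 and 12.89 in libraries labelled BRCA2 siRNA and at 12.40 and 12.62 with control siRNA. H2BC4 with EGF was at 13.94, 13.85 and 13.84 in those labelled BRCA2 siRNA and at 13.86, 13.67 and 13.46 with control siRNA. The groups did not overlap under either siRNA, and H2BC4 fell by 0.77 ± 0.12 in libraries labelled BRCA2 siRNA (adjusted p = 0.00182, the smallest of the 30 genes) and by 1.15 ± 0.13 with control siRNA (adjusted p = 6.05e-05). H2BC21, an H2B gene known to give polyadenylated as well as stem-loop transcripts, had the largest p of the class. H2BC21 without EGF was at 12.06, 11.93 and 11.72 in libraries labelled BRCA2 siRNA and at 11.22 and 11.40 with control siRNA. H2BC21 with EGF was at 12.37, 11.63 and 12.63 in those labelled BRCA2 siRNA and at 11.83, 11.42 and 12.35 with control siRNA. The control groups were separated only narrowly, and the groups labelled BRCA2 siRNA overlapped. The differences were -0.30 ± 0.26 (adjusted p = 0.394) in libraries labelled BRCA2 siRNA and -0.56 ± 0.29 (adjusted p = 0.124) with control siRNA. H2BC13 fell by 0.75 ± 0.14 in libraries labelled BRCA2 siRNA and by 1.33 ± 0.15 with control siRNA, the largest fall of the 30 genes. H2BC12 fell by 0.35 ± 0.10 in libraries labelled BRCA2 siRNA and by 0.94 ± 0.12 with control siRNA. H2BC18 and H2BC5 did not pass in libraries labelled BRCA2 siRNA and fell with control siRNA by 1.05 and 0.67. H2BC11 and H2BC15 differed with control siRNA by -0.65 ± 0.33 and -0.64 ± 0.28 with adjusted p-values of 0.121 and 0.0747.

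No H3 gene passed in libraries labelled BRCA2 siRNA, where H3C12 came closest. Without EGF H3C12 was at 9.63, 9.72 and 9.46 in libraries labelled BRCA2 siRNA and at 8.66 and 8.68 with control siRNA. H3C12 with EGF was at 10.36, 9.80 and 10.33 in those labelled BRCA2 siRNA and at 9.96, 9.41 and 10.16 with control siRNA. The groups did not overlap under either siRNA. The difference was -0.55 ± 0.19 in libraries labelled BRCA2 siRNA (adjusted p = 0.0519), and H3C12 fell by 1.17 ± 0.21 with control siRNA (adjusted p = 0.00103, limma). H3C13 was the most variable of the 30 genes around its group means, with a residual SD of 0.575. H3C13 without EGF was at 10.51, 10.53 and 10.04 in libraries labelled BRCA2 siRNA and at 9.44 and 9.53 with control siRNA. H3C13 with EGF was at 10.80, 9.54 and 11.11 in those labelled BRCA2 siRNA and at 9.94, 9.63 and 10.83 with control siRNA. The B libraries with EGF were the lowest of their groups, and its differences did not pass (adjusted p = 0.822 in libraries labelled BRCA2 siRNA and 0.22 with control siRNA). H3C14 and H3C15, a pair of near-identical H3 genes, each fell by 1.02 ± 0.19 with control siRNA and differed from each other by at most 0.0019 in any library. They carry one measurement rather than a pair. H3C4 had a difference of -0.53 ± 0.21 in libraries labelled BRCA2 siRNA (adjusted p = 0.0847) and fell by 0.90 ± 0.24 with control siRNA.

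H4C11 and H4C3 had the largest falls of the H4 genes. Without EGF H4C11 was at 13.11, 13.10 and 12.80 in libraries labelled BRCA2 siRNA and at 12.21 and 12.42 with control siRNA. H4C11 with EGF was at 13.96, 13.74 and 13.70 in those labelled BRCA2 siRNA and at 13.80, 13.74 and 13.38 with control siRNA. The groups did not overlap, and H4C11 fell by 0.79 ± 0.13 in libraries labelled BRCA2 siRNA (adjusted p = 0.00223) and by 1.32 ± 0.14 with control siRNA (adjusted p = 4.36e-05, the smallest of the 30 genes). H4C3 fell by 0.83 ± 0.13 in libraries labelled BRCA2 siRNA and by 1.31 ± 0.15 with control siRNA. H4C8 fell by 0.66 ± 0.14 in libraries labelled BRCA2 siRNA and by 0.95 ± 0.16 with control siRNA. H4C16 codes for H4 from a locus of its own on chromosome 12. H4C16 without EGF was at 9.61, 9.78 and 9.59 in libraries labelled BRCA2 siRNA and at 9.16 and 9.44 with control siRNA. H4C16 with EGF was at 10.08, 9.31 and 10.09 in those labelled BRCA2 siRNA and at 9.33, 9.04 and 9.56 with control siRNA. The groups overlapped under both siRNAs, and the differences were -0.17 ± 0.20 (adjusted p = 0.544) in libraries labelled BRCA2 siRNA and -0.02 ± 0.22 (adjusted p = 0.955) with control siRNA. With control siRNA its 95% interval ran from -0.51 to 0.47, which does not reach the fall of H4C11.

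**Figure D2:**
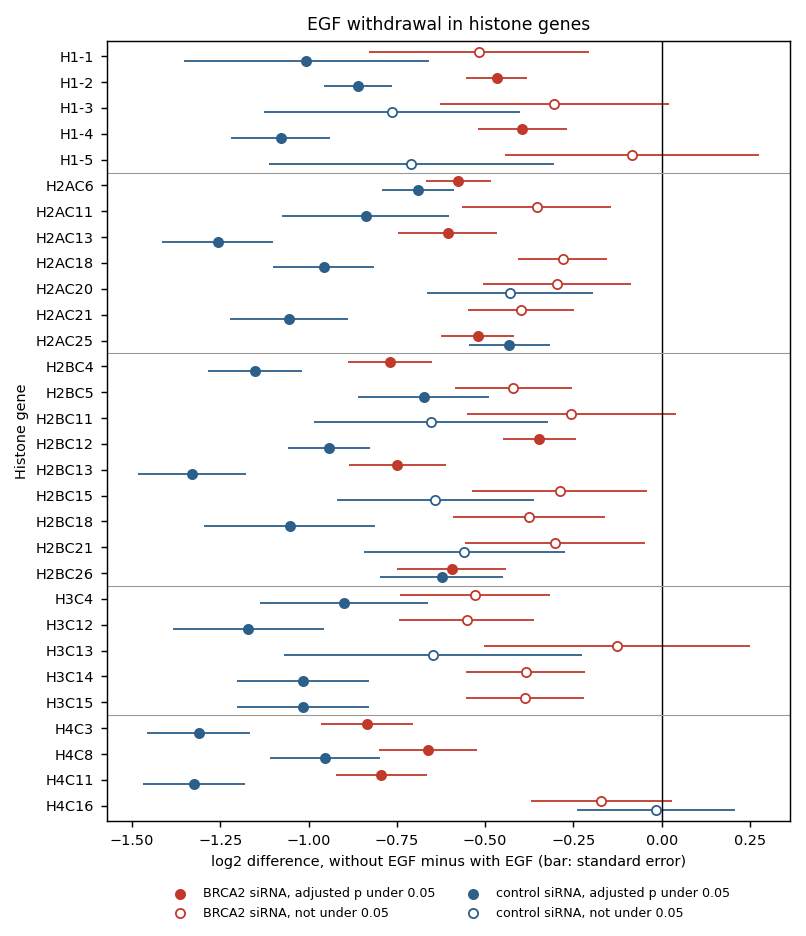
Log2 difference without EGF minus with EGF for each of 30 histone genes, in libraries labelled BRCA2 siRNA (red) and control siRNA (blue), with the moderated standard error as a bar and filled points for an adjusted p under 0.05. All points lie left of 0, with 12 filled for BRCA2 siRNA and 22 for control siRNA.

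The genes are grouped in clusters. All counts of this paragraph stand beside 13.8% of all genes that fell in libraries labelled BRCA2 siRNA and 26.1% with control siRNA. In the HIST1 cluster on chromosome 6, 10 of 19 genes fell in libraries labelled BRCA2 siRNA and 15 of 19 with control siRNA. In the HIST2 cluster on chromosome 1, 0 of 8 fell in libraries labelled BRCA2 siRNA and 5 of 8 with control siRNA, with medians of -0.34 in libraries labelled BRCA2 siRNA and -0.99 with control siRNA. For 8 genes, a count of 0 is near the share of all genes. All 8 HIST2 differences were negative in libraries labelled BRCA2 siRNA, and 4 had an unadjusted p under 0.05 (limma). H2AC25 and H2BC26, the pair of HIST3 genes on chromosome 1, fell under both siRNAs by similar amounts in the group means. H2AC25 fell by 0.52 ± 0.10 in libraries labelled BRCA2 siRNA and by 0.43 ± 0.11 with control siRNA. H2BC26 fell by 0.59 ± 0.16 in libraries labelled BRCA2 siRNA and by 0.62 ± 0.17 with control siRNA. Within replicate letters, the control siRNA differences were -0.57 in A and -0.15 in C for H2AC25. For H2BC26 they were -0.94 in A and -0.28 in C. The H2BC26 call in libraries labelled BRCA2 siRNA was lost without replicate C of either BRCA2 siRNA group. With control siRNA, the calls of H2AC25 and H2BC26 were lost without the control siRNA without EGF replicate A, which leaves 1 library in that group. The control siRNA calls of H1-1, H2AC11, H2BC5 and H3C4 were lost there too. H1-1 also lost its call without replicate A or C of the control siRNA with EGF. With control siRNA, 14 of the 17 genes with a stem-loop in an annotated transcript fell, and 8 of the 13 without one. Those 13 may carry one beyond the annotated end, so the counts do not compare genes with and without a stem-loop. Of the 11 genes with the form shown for H2BC13, 9 fell, with differences from -1.33 to -0.43 over the 11. The 3 H4 genes with the form shown for H4C11 spanned -1.32 to -0.02. Genes were also sorted by the annotated transcript that ran furthest past the stem-loop. Where it ended within 100 bases of the stem-loop (5 genes, all of which fell), the median was -1.26. The 12 genes in which it ran further had a median of -0.76, with 9 that fell. The sources used here do not give the annotation behind the deposited values.

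Reads from near-identical copies limit some of these values. More than 50% of the 50-base stretches of H2AC13, H2AC18, H3C13, H3C14, H3C15 and H4C11 also occur in other histone genes' transcripts, so their values are uncertain as single genes. For 12 genes the share was under 1%. Of these, 6 (H1-2, H1-4, H2AC6, H2AC25, H4C3 and H4C8) fell in libraries labelled BRCA2 siRNA and also with control siRNA. H1-1, H2AC11 and H3C4 fell with control siRNA alone past the threshold, and H1-3, H1-5 and H4C16 passed under neither siRNA.

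The 8 genes that did not pass with control siRNA (H1-3, H1-5, H2AC20, H2BC11, H2BC15, H2BC21, H3C13 and H4C16) had a residual SD of 0.291 to 0.575, with a median of 0.419. The 22 genes that fell had a residual SD of 0.0938 to 0.468, with a median of 0.195, beside a median of 0.182 for all genes. The ranges overlap, with H1-1 the highest of the 22, and the residual SD enters the test that parted the 8 from the 22. In all 8, replicate B lay below replicate C with EGF, by 0.77 to 1.57 in libraries labelled BRCA2 siRNA and by 0.52 to 1.33 with control siRNA. Without EGF the order was the other way, and B lay above C by 0.15 to 0.49 in libraries labelled BRCA2 siRNA. Over all 30 genes, the median of B minus C was -0.52 in libraries labelled BRCA2 siRNA with EGF and -0.35 with control siRNA and EGF, and it was 0.26 in libraries labelled BRCA2 siRNA without EGF. The S phase markers, genes of DNA replication, moved with them: their median B minus C was -0.75 in libraries labelled BRCA2 siRNA with EGF, -1.02 with control siRNA and EGF, and 0.14 in libraries labelled BRCA2 siRNA without EGF. The part of that spread in the histone results was not tested.

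Within single replicate letters, withdrawal could be followed in A, B and C of the libraries labelled BRCA2 siRNA and in A and C with control siRNA, which has no B library without EGF. In libraries labelled BRCA2 siRNA the median was -0.48 in A (29 of 30 negative), -0.01 in B (15 of 30 negative) and -0.86 in C (30 of 30 negative). With control siRNA the median was -1.14 in A and -0.93 in C, with 30 of 30 genes negative in each. The S phase markers had medians of -0.10, 0.67 and -0.36 in A, B and C of the libraries labelled BRCA2 siRNA. The deposited values of every gene have the same mean over the A libraries as over the B and C libraries, to within 7.2e-09. A was therefore centred against B and C, a set that lacks control siRNA without EGF in B. The p-values leave out that difference of A from B and C, and the 7 residual degrees of freedom do not allow for it. Within B and C alone, 0 of 30 genes fell in libraries labelled BRCA2 siRNA (13 at an unadjusted p under 0.05), beside 0.261% of all genes past the threshold in either direction, and 9 of 30 with control siRNA, beside 11.2%. That fit has 1 control library without EGF, which is assumed to vary like the other groups, and A alone has 1 library a group and no test. Without the BRCA2 siRNA with EGF replicate B, 21 of 30 genes fell in libraries labelled BRCA2 siRNA, beside 2073 of all 17921 genes tested in that fit. Without both B libraries with EGF, a choice made after seeing the data, 26 fell there, beside 2671 of all 17879 genes. In every fit that left out 1 library, 8 of the 12 calls in libraries labelled BRCA2 siRNA (H1-2, H2AC6, H2AC25, H2BC4, H2BC13, H4C3, H4C8 and H4C11) and 16 of the 22 calls with control siRNA were kept.

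**Figure D3:**
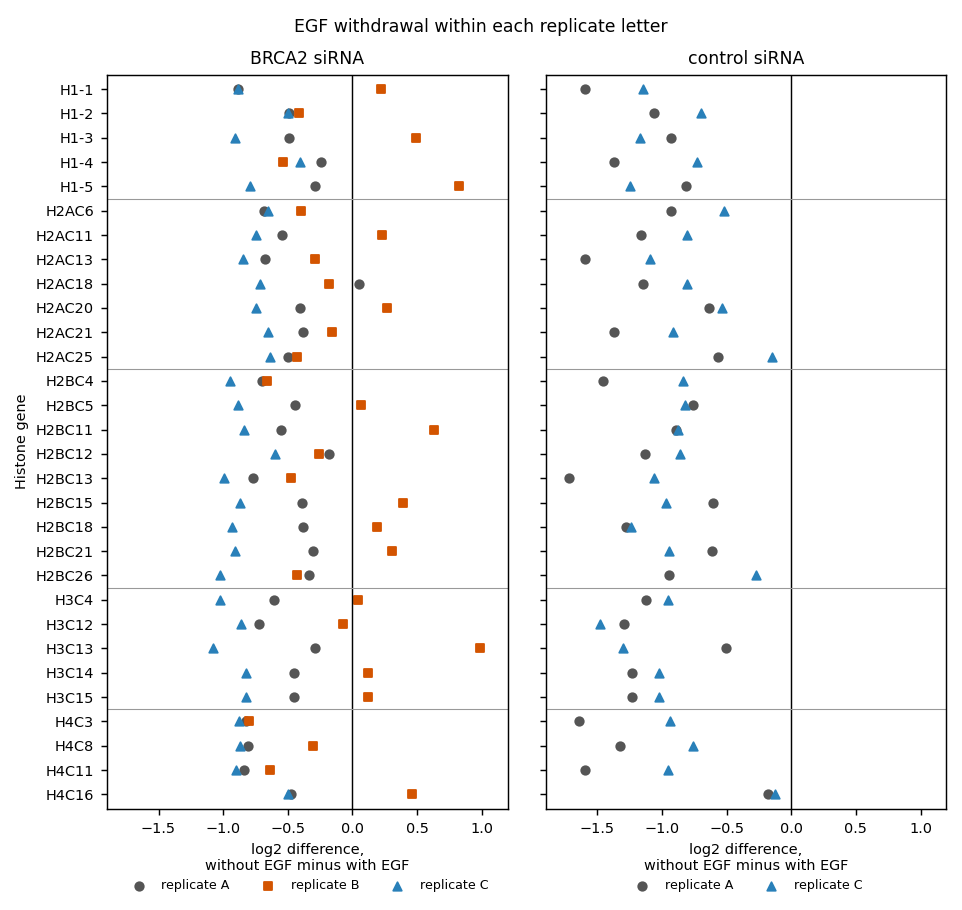
Log2 difference without EGF minus with EGF of each histone gene within one replicate letter, for libraries labelled BRCA2 siRNA (left) and control siRNA (right). In replicate B of the libraries labelled BRCA2 siRNA 15 of 30 points lie below 0, and with control siRNA all points do in A and C.

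Markers of other cell types moved with EGF. The summed level of 9 fibroblast genes was 12.41 to 13.12 in libraries labelled BRCA2 siRNA without EGF and 13.43 to 13.53 with control siRNA without EGF. It was 11.42 to 11.52 in libraries labelled BRCA2 siRNA with EGF and 11.26 to 11.57 with control siRNA and EGF. Of the 8 fibroblast genes tested, 4 rose on withdrawal in libraries labelled BRCA2 siRNA and 7 with control siRNA. Of all genes, 13.4% rose in libraries labelled BRCA2 siRNA and 24.7% with control siRNA. COL1A2 stayed at or below 1.84 in every library. The summed basal epithelial level was 19.52 to 19.70 in libraries labelled BRCA2 siRNA without EGF and 19.79 to 19.95 with control siRNA without EGF. It was 19.22 to 19.34 in those labelled BRCA2 siRNA with EGF and 19.07 to 19.31 with control siRNA and EGF. The summed luminal level lay between 12.03 and 12.63 in all libraries. Leukocyte and endothelial genes summed to 8.20 to 8.80 in libraries labelled BRCA2 siRNA without EGF and 10.23 to 10.45 with control siRNA without EGF, against 7.58 to 8.51 in libraries labelled BRCA2 siRNA with EGF and 7.54 to 8.64 with control siRNA and EGF. KDR carried most of that sum, at 7.31 to 10.40, while PTPRC, CD3E, CD68, VWF and CDH5 did not reach the level for testing. CD14, a monocyte marker and the other gene of that list to be tested, was at 4.18, 4.34 and 4.28 in libraries labelled BRCA2 siRNA without EGF and at 5.61 and 5.01 with control siRNA without EGF. With EGF CD14 was at 3.10, 3.31 and 3.94 in those labelled BRCA2 siRNA and at 3.00, 3.03 and 3.89 with control siRNA. CD14 rose on withdrawal by 0.82 ± 0.28 in libraries labelled BRCA2 siRNA (adjusted p = 0.0497, limma) and by 2.00 ± 0.31 with control siRNA (adjusted p = 0.000373). The part of these markers in the histone results was not tested.

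Without EGF, 17 of 30 histone genes were higher in libraries labelled BRCA2 siRNA than with control siRNA and 0 were lower, beside 11.2% of all genes that were higher and 9.36% that were lower. The 17 were 2 H1, 5 H2A, 4 H2B, 3 H3 and 3 H4 genes. All 30 differences were positive, from 0.06 to 0.99 with a median of 0.75, and in 28 genes every library labelled BRCA2 siRNA lay above both control libraries, beside 33.2% of all genes. The exceptions were the HIST3 genes, with H2AC25 at 0.06 ± 0.12 and H2BC26 at 0.11 ± 0.17. The control group without EGF has 2 libraries and also enters withdrawal with control siRNA, so these differences share libraries with those above. Without its replicate A, H2BC12 was the 1 gene still called. Within B and C alone, 0 of 30 were called (11 at an unadjusted p under 0.05), beside 0 of all genes.

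**Figure D4:**
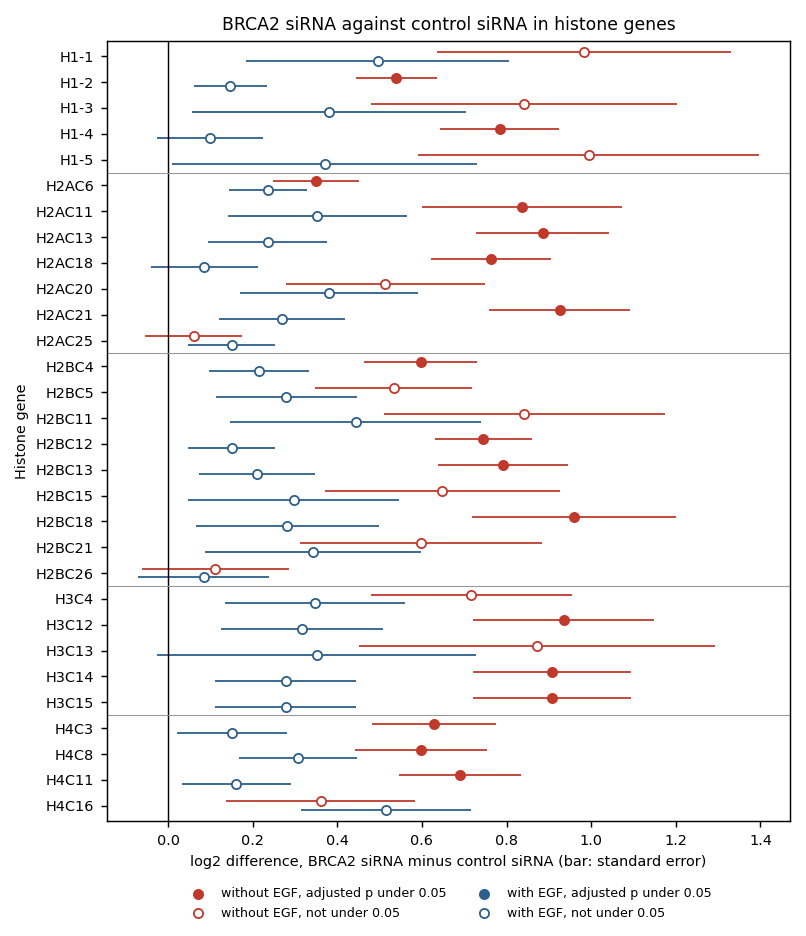
Log2 difference of BRCA2 siRNA minus control siRNA for each of 30 histone genes without EGF (red) and with EGF (blue), with the moderated standard error as a bar and filled points for an adjusted p under 0.05. All points lie right of 0, with 17 filled without EGF and 0 with EGF.

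H2BC12, an H2B gene of the chromosome 6 cluster, had the smallest adjusted p of these. H2BC12 without EGF was at 13.31, 13.12 and 12.92 in libraries labelled BRCA2 siRNA, against 12.29 and 12.45 with control siRNA. H2BC12 with EGF was at 13.49, 13.37 and 13.51 in those labelled BRCA2 siRNA, against 13.42, 13.20 and 13.31 with control siRNA. The siRNA groups were apart without EGF and overlapped with it, and the difference without EGF was 0.75 ± 0.12 (adjusted p = 0.00255, limma). H2BC18 without EGF was at 12.27, 12.23 and 11.80 in libraries labelled BRCA2 siRNA, against 11.01 and 11.27 with control siRNA, and with EGF its 6 libraries lay between 11.79 and 12.73. H2BC13 was at 10.93, 10.89 and 10.60 in libraries labelled BRCA2 siRNA, against 9.85 and 10.18 with control siRNA, and with EGF at 11.22 to 11.70. Both were separated without EGF, H2BC18 by 0.96 ± 0.24 (adjusted p = 0.0181) and H2BC13 by 0.79 ± 0.15 (adjusted p = 0.00632). H2BC4, with its values above, differed by 0.60 ± 0.13 (adjusted p = 0.011).

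Of the 7 H2A genes, 5 were higher, by up to 0.93, while H2AC20 differed by 0.51 (adjusted p = 0.144) and H2AC25 by the 0.06 given above. H2AC21 without EGF was at 11.12, 10.88 and 10.78 in libraries labelled BRCA2 siRNA, against 9.81 and 10.19 with control siRNA, and with EGF at 10.87 to 11.50. H2AC18 was at 14.18, 13.93 and 13.65 in libraries labelled BRCA2 siRNA, against 13.10 and 13.22 with control siRNA, and with EGF at 14.03 to 14.37. The control libraries of both were the lowest of all 11, and replicate A labelled BRCA2 siRNA reached the range seen with EGF. H2AC21 differed by 0.93 ± 0.17 (adjusted p = 0.00468) and H2AC18 by 0.76 ± 0.14 (adjusted p = 0.00543). H2AC11 was at 12.62, 12.58 and 12.33 in libraries labelled BRCA2 siRNA, against 11.44 and 11.91 with control siRNA, and with EGF at 12.22 to 13.17. H2AC6 was at 13.55, 13.60 and 13.47 in libraries labelled BRCA2 siRNA, against 13.10 and 13.28 with control siRNA, and with EGF at 13.80 to 14.23. H2AC11 differed by 0.84 ± 0.24 (adjusted p = 0.0291), H2AC13 by 0.89 ± 0.16 (adjusted p = 0.00421), and H2AC6 by 0.35 ± 0.10 (adjusted p = 0.0333), the smallest difference of the 17.

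Of the linker histones, H1-4 and H1-2 were higher. H1-4 without EGF was at 13.79, 13.61 and 13.49 in libraries labelled BRCA2 siRNA, against 12.76 and 12.94 with control siRNA, and with EGF at 13.67 to 14.15. Its groups did not overlap, with a difference of 0.78 ± 0.14 (adjusted p = 0.00446), and H1-2 differed by 0.54 ± 0.10 (adjusted p = 0.00426). H1-1, H1-3 and H1-5 had differences of 0.98 ± 0.35, 0.84 ± 0.36 and 0.99 ± 0.40 that did not pass.

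H3C14 without EGF was at 13.48, 13.49 and 13.07 in libraries labelled BRCA2 siRNA, against 12.31 and 12.56 with control siRNA, and with EGF at 13.23 to 13.93, as was H3C15 to 2 decimals. H3C14 and H3C15 each differed by 0.91 ± 0.19 and H3C12 by 0.94 ± 0.21 (adjusted p = 0.0122). H4C3 without EGF was at 11.86, 11.81 and 11.54 in libraries labelled BRCA2 siRNA, against 10.98 and 11.23 with control siRNA, and with EGF at 12.17 to 12.68. H4C8 was at 12.58, 12.63 and 12.41 in libraries labelled BRCA2 siRNA, against 11.77 and 12.12 with control siRNA, and with EGF at 12.71 to 13.39. For both H4 genes the libraries labelled BRCA2 siRNA lay between the control libraries without EGF and all libraries with EGF. H4C3 differed by 0.63 ± 0.15 (adjusted p = 0.0134), H4C8 by 0.60 ± 0.16 (adjusted p = 0.0209) and H4C11 by 0.69 ± 0.14 (adjusted p = 0.00849).

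With EGF present, no histone gene passed between the siRNAs. Of 30 genes, 0 were called in either direction (limma, smallest adjusted p = 0.999), beside 0.00557% of all genes. At an unadjusted p under 0.05 there were 3 histone genes, H2AC6, H4C8 and H4C16, beside 2.83% of all genes. No fit that left out 1 library or changed a setting called any, though 20 genes had an unadjusted p under 0.05 without the BRCA2 siRNA replicate B. All 30 differences were positive, from 0.08 to 0.51 with a median of 0.28. The largest was that of H4C16, at 0.51 ± 0.20 with a 95% interval from 0.08 to 0.95. H1-2 differed by 0.15 ± 0.09, with an interval from -0.04 to 0.34, and H2BC12 by 0.15 ± 0.10, with an interval from -0.08 to 0.38. The group ranges of every histone gene overlapped, beside 3.38% of all genes whose groups were apart and lower and 2.51% apart and higher.

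By replicate letter, the siRNA difference without EGF had a median of 1.03 in A (30 of 30 positive) and 0.43 in C, where H2AC25 and H2BC26 were negative. With EGF the medians were 0.38 in A, 0.15 in B and 0.32 in C. Without EGF, 4 of 8 fibroblast genes were lower in libraries labelled BRCA2 siRNA, beside 9.36% of all genes. Their summed levels are given above, and their part in the histone difference was not tested.

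The test of whether withdrawal differed between the siRNAs called 0 of 30 histone genes, beside 1.38% of all genes with a higher and 1.93% with a lower difference (limma, Benjamini-Hochberg). The smallest adjusted p was 0.0599, for H2BC12, with a difference of 0.60 ± 0.15 between its falls. At an unadjusted p under 0.05 there were 11 histone genes, beside 22.2% of all genes. The difference was positive in 28 of 30 genes, with a median of 0.48, and negative in H2AC25 and H4C16. The count was 4 without the control siRNA with EGF replicate C, 2 without the BRCA2 siRNA without EGF replicate C, and 0 in the other fits that left out 1 library. Of all genes, 8.96% were called in either direction in the first of these fits and 5.82% in the second. That more genes fell with control siRNA therefore does not show that the falls differed between the siRNAs.

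The genes that make and handle histone mRNA were followed through the same withdrawal. The counts stand beside 13.8% of all genes that fell and 13.4% that rose in libraries labelled BRCA2 siRNA, and 26.1% that fell and 24.7% that rose with control siRNA. In libraries labelled BRCA2 siRNA, 7 of 17 genes of 3′ processing fell and 1 rose, with a median of -0.29. With control siRNA, 14 of 17 fell and 0 rose, with a median of -0.65. SLBP (ENSG00000163950) without EGF was at 11.50, 11.46 and 11.38 in libraries labelled BRCA2 siRNA and at 10.84 and 10.87 with control siRNA. SLBP with EGF was at 11.98, 11.39 and 11.91 in those labelled BRCA2 siRNA and at 11.54, 11.39 and 11.86 with control siRNA. Its control libraries without EGF were the lowest of all 11. The SLBP difference was -0.32 ± 0.15 in libraries labelled BRCA2 siRNA (adjusted p = 0.139), and SLBP fell by 0.75 ± 0.17 with control siRNA (adjusted p = 0.0037). CPSF3, the endonuclease that cuts histone pre-mRNA, fell by 0.37 ± 0.08 in libraries labelled BRCA2 siRNA and by 0.70 ± 0.09 with control siRNA. CPSF2, its partner, fell by 0.39 ± 0.10 in libraries labelled BRCA2 siRNA and by 0.84 ± 0.11 with control siRNA. CSTF2 fell by 0.64 ± 0.09 with control siRNA and SNRPB, an Sm core protein, by 0.77 ± 0.10.

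In the transcription list, 0 of 12 genes fell and 4 rose in libraries labelled BRCA2 siRNA, and 1 fell and 3 rose with control siRNA, the second a share of rises near that of all genes. NPAT differed by 0.14 ± 0.10 in libraries labelled BRCA2 siRNA (adjusted p = 0.313) and by 0.05 ± 0.11 with control siRNA (adjusted p = 0.734). Without the control siRNA with EGF replicate B, the NPAT difference with control siRNA was -0.03. CASP8AP2, a histone locus body protein also called FLASH, differed by 0.20 ± 0.17 in libraries labelled BRCA2 siRNA and by 0.16 ± 0.19 with control siRNA. GON4L, CREBBP and TRRAP rose under both siRNAs, by 0.34, 0.48 and 0.44 with control siRNA. With control siRNA, leaving out the control siRNA without EGF replicate A ended the call of CREBBP, and the call of TRRAP was lost in 7 of the 11 fits that left out 1 library. CDK2 fell by 0.38 with control siRNA, a call lost in 9 of the 11. In libraries labelled BRCA2 siRNA, TRRAP lost its call without the BRCA2 siRNA with EGF replicate A, and GON4L without that library or without replicate B or C of the BRCA2 siRNA without EGF.

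Of 12 decay genes, 4 fell and 1 rose in libraries labelled BRCA2 siRNA, and 6 fell and 4 rose with control siRNA. LSM4 and LSM1, subunits of the Lsm ring that binds RNA ends, fell by 1.06 and 0.83 with control siRNA, and ERI1, an exonuclease that trims the stem-loop, by 0.66. TUT4, a terminal uridylyltransferase, rose by 0.36 ± 0.09 in libraries labelled BRCA2 siRNA and by 0.87 ± 0.10 with control siRNA. The first of these calls was lost without the BRCA2 siRNA with EGF replicate A or without the BRCA2 siRNA without EGF replicate C, as were those of CENPA and CDC45 below. Of 25 chaperone genes, 3 fell and 1 rose in libraries labelled BRCA2 siRNA, and 10 fell and 2 rose with control siRNA. HJURP, the chaperone of CENPA, fell by 1.19 with control siRNA, DNAJC9 by 0.96, SSRP1 by 0.65 and RBBP7 by 0.62.

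Of 11 replacement histones tested, 3 fell and 0 rose in libraries labelled BRCA2 siRNA, and 6 fell and 0 rose with control siRNA, with a median of -0.79. CENPA, the centromeric H3, fell by 0.52 ± 0.13 in libraries labelled BRCA2 siRNA and by 1.33 ± 0.14 with control siRNA. H3-3B, a replacement H3 made outside S phase, fell by 0.74 ± 0.16 in libraries labelled BRCA2 siRNA and by 1.07 ± 0.18 with control siRNA. H2AX fell by 0.83 with control siRNA and MACROH2A1 by 0.32, and both calls were lost without the control siRNA without EGF replicate A, that of MACROH2A1 also without replicate C of that group. Of 29 S phase markers tested, 4 fell and 0 rose in libraries labelled BRCA2 siRNA, with a median of 0.07, and 8 fell and 0 rose with control siRNA, with a median of -0.41. Both counts of falls are near the shares of all genes that fell. CDC45, part of the replicative helicase, fell by 0.57 ± 0.14 in libraries labelled BRCA2 siRNA and by 1.50 ± 0.15 with control siRNA. CDC6, which loads that helicase, fell by 1.05, DBF4 by 1.02 and CCNA2 (cyclin A) by 1.15 with control siRNA. H2BS1 and UHRF1 were not analysed here.

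**Figure D5:**
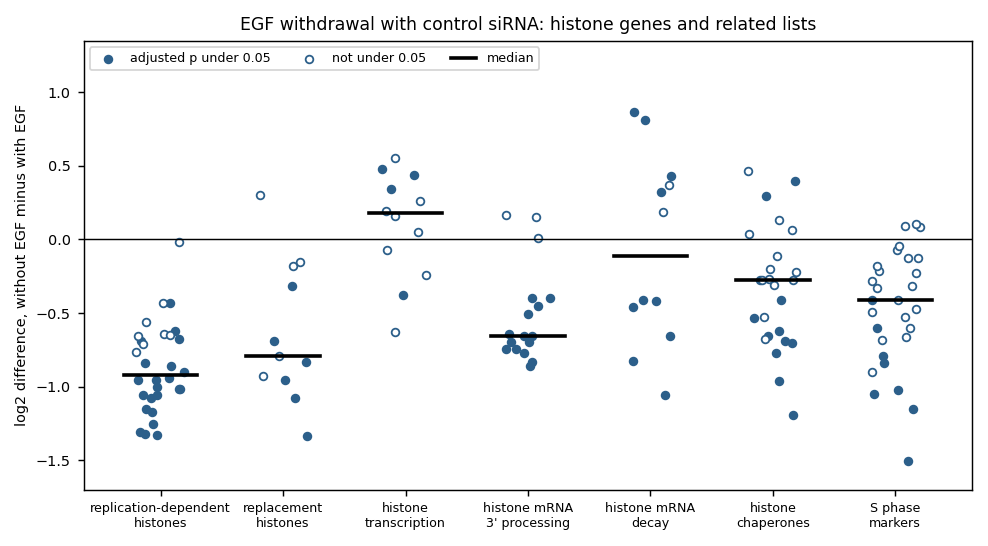
Log2 difference without EGF minus with EGF with control siRNA for each gene of the replication-dependent histones and 6 related lists, with filled points for an adjusted p under 0.05 and a bar at each list's median. The histone median of -0.92 is the lowest of the medians drawn, and the transcription list's is above 0 at 0.18.

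Between the siRNAs without EGF, 10 of 17 processing genes, 8 of 29 S phase markers, 7 of 25 chaperones and 5 of 11 replacement histones were higher in libraries labelled BRCA2 siRNA, and none of these lists had a lower gene. Of all genes tested, 11.2% were higher there and 9.36% lower. Of 12 decay genes, 5 were higher and 4 lower, and of 12 transcription genes 0 were called (4 at an unadjusted p under 0.05). SLBP was 0.60 ± 0.17 higher (adjusted p = 0.0298), a call that ended without either control siRNA library without EGF and without the BRCA2 siRNA without EGF replicate A or B (largest adjusted p = 0.162). TUT4 was 0.63 ± 0.10 lower, and CDC45 and CDC6 were 1.02 ± 0.15 and 1.02 ± 0.14 higher. The fits that left out 1 library were read for SLBP and for up to 4 called genes of each list with the smallest p. Of these 21 genes, CDC45, CDC6, HJURP and TUT4 kept the call in every such fit. With EGF, 0 genes of these 6 lists were called between the siRNAs, beside 0.00557% of all genes.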

How the data were processed

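RNA sequencing of 11 libraries gave 1 table of 40460 genes by Ensembl identifier, deposited by the authors as normalised log2 values (-2.94 to 20.62) on hg19. The submitters' processing notes name TopHat2 2.0.11, DESeq2 and limma, with no role or order. The counter, the annotation, the use of strand and the log2 transform were not given in the sources used here, and no counts or depths are held, so no counting interval was computed. All columns were used.

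Genes at 10 or above on the linear scale in at least 2 libraries were tested, 17945 in all. limma 3.58.1 in R 4.3.3 was fitted to 4 group means with a mean-variance trend and 7 residual degrees of freedom, two-sided, with Benjamini-Hochberg adjustment over all genes tested and a threshold of 0.05; ± is the moderated standard error. The fit was tested on simulated data. Alternatives were other filters, quantile normalisation, no trend, a replicate block, a term for replicate A, B and C alone, the compared groups alone, and leaving out each library. Full values are given for the genes with the smallest and largest p of each class in withdrawal with control siRNA and for those called between the siRNAs, and up to 4 genes of each list by p, with SLBP, NPAT and CASP8AP2. The lists were genes of replacement histones, histone transcription, 3′ processing, decay and chaperones, S phase markers, and basal, luminal, fibroblast, and leukocyte and endothelial markers. Members and lists were chosen with earlier results of these data known. The letter was not used as a block: deviations of same-letter libraries correlated at 0.7 between the siRNAs with EGF in B and in C, and at -0.37 to 0.04 in every other pair. Promoters came from RefSeq (GRCh38.p14) and stem-loops from GENCODE 29 transcripts.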

Additional observations from a re-analysis of the deposited data

Results flagged for a closer look

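Withdrawal of EGF differed between the siRNAs by the test of the difference itself (limma, Benjamini-Hochberg) in 5 genes of the related lists. Each had a smaller fall in libraries labelled BRCA2 siRNA than with control siRNA. The 5 were 1 of 11 replacement histones, 2 of 25 chaperones and 2 of 29 S phase markers tested. The transcription, processing and decay lists had none. Of all genes, 1.38% had a higher and 1.93% a lower difference. The centromeric histone CENPA differed by 0.81 (adjusted p = 0.0478). The FACT chaperone subunit SSRP1 differed by 0.47 (adjusted p = 0.0472). HJURP, the chaperone of CENPA, differed by 0.66 (adjusted p = 0.0307). The licensing factor CDC6 differed by 0.93 (adjusted p = 0.0331). The helicase factor CDC45 differed by 0.93 (adjusted p = 0.0373). All 5 calls were lost without the control siRNA without EGF replicate A, with adjusted p up to 0.212 over the fits that left out 1 library, and none was kept in every such fit.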

How the results depend on the processing

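Depth could not be read from these values, and the control group without EGF has 2 libraries. Histone genes that fell in libraries labelled BRCA2 siRNA numbered 0 in B and C alone, 26 without both B libraries with EGF (added after seeing the data) and 9 to 21 over the fits that left out 1 library. With control siRNA the count was 9 in B and C alone and 16 to 27 leaving out 1 library. Between the siRNAs without EGF it was 0 in B and C alone, 28 with the 2 groups alone, 28 without both B libraries with EGF and 1 to 26 leaving out 1 library, and with EGF it was 0 in every fit. Genes whose withdrawal differed numbered 1 with quantile normalisation, 1 without both B libraries and 0 to 4 leaving out 1 library. With the replicate letter as a block, the counts were 16 of 30 in libraries labelled BRCA2 siRNA, 28 with control siRNA, 27 between the siRNAs without EGF and 3 for the difference in withdrawal. Libraries of one letter deviated together between the siRNAs with EGF in B and in C (r = 0.7), and not in the other pairs (r up to 0.04). No other setting moved a count by over 1.5 times. The shares that follow are of all genes called in either direction. With the letter as a block, they were 30.4% on withdrawal in libraries labelled BRCA2 siRNA and 49.6% with control siRNA. The block called 23.3% between the siRNAs without EGF and 5.18% for the difference in withdrawal. Between the siRNAs without EGF, the share was 38.4% with the 2 groups alone and 28.7% without both B libraries. The main fit called 11.2% higher and 9.36% lower there. On withdrawal in libraries labelled BRCA2 siRNA it was 27.7% without both B libraries and 12.4% to 34.6% leaving out 1 library. Where both control libraries without EGF were kept, leaving out 1 other library gave 40.5% to 55.9% on withdrawal with control siRNA. Those fits gave 9.29% to 26.6% between the siRNAs without EGF. For the difference in withdrawal the share was 3.64% without both B libraries and at most 8.96% leaving out 1 library. The cause of these changes was not tested.

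Differences that changed sign were all of genes not past the threshold. With control siRNA, NPAT was -0.0064 under the block and -0.032 without both B libraries, and H4C16 was 0.13 in B and C alone and 0.057 with quantile normalisation. In libraries labelled BRCA2 siRNA, H1-5 was 0.017 in B and C alone and 0.079 with quantile normalisation, where BRCA2 was 0.015. Between the siRNAs, BRCA2 was -0.043 with EGF without both B libraries. Without EGF, H2BC26 was -0.13 in B and C alone and H2AC25 -2e-04 with quantile normalisation. For the difference in withdrawal, H2BC26 was -0.34 and H2AC20 -0.0078 in B and C alone, and H2BC26 was -0.039 without both B libraries. Over the fits that left out 1 library, withdrawal with control siRNA ran from -0.16 to 0.12 for H4C16 and -0.032 to 0.14 for NPAT, and in libraries labelled BRCA2 siRNA from -0.52 to 0.18 for H1-5 and -0.60 to 0.19 for H3C13. Between the siRNAs with EGF, BRCA2 ran from -0.060 to 0.11, H1-4 from -0.029 to 0.20 and H2BC26 from -0.015 to 0.17. H2BC26 without EGF ran from -0.037 to 0.26. The difference in withdrawal ran from -0.12 to 0.18 for H2BC26, -0.13 to 0.31 for H2AC20, -0.034 to 0.48 for H2BC21 and -0.16 to 0.031 for H2AC25.

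A filter at 100 on the linear scale moved the median of all genes with control siRNA to -0.16 and the share of calls that were higher to 36.0%, against 48.7% over all genes tested, with 22 histone genes lower.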
